A study of Homo sapiens with 32 samples.

Results

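The etoposide response of U2OS cells carrying the p53 change A347D on both alleles was measured in 8 of the 32 libraries of the series. These were the 4 HOM libraries with etoposide and the 4 HOM libraries with DMSO, taken by their labels. U2OS is a human osteosarcoma line with wild-type p53, and HOM stands here for the line homozygous for A347D. The series edited U2OS cells with CRISPR-Cas9 and also holds cells with unedited p53 (WT), cells without p53 (KO) and heterozygous cells (HET), each with the same 2 treatments. Poly-A RNA was sequenced. Treated cells received 20 µM etoposide for 24 h and control cells DMSO, the solvent, for 24 h. Each group had 4 plates, taken as its replicates, so p-values measure the spread between plates. The number of edited clones behind each genotype is not stated in the labels, so genotype and clone cannot be told apart. Of 35587 gene symbols in the deposited matrix, 15445 had at least 10 normalized counts in at least 4 of the 8 HOM libraries and were tested.

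Etoposide traps topoisomerase II on cleaved DNA and leaves double-strand breaks. Cells answer such breaks through kinases that stabilise p53, a transcription factor that binds DNA as a tetramer and raises genes of cell cycle arrest, repair and apoptosis. The changed residue lies in the domain that holds the tetramer together, and the mutant is titled dimer-forming. The comparison asks what DNA damage does to transcript levels in cells whose only p53 is this mutant.

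The 4 HOM libraries with DMSO were not alike, and this touches every change below. Totals were close, 20.35 to 22.26 M counts in the 8 libraries. The 13 mtDNA-encoded transcripts, subunits of the respiratory chain, made up 12.5% of counts in DMSO replicate 1 and 20.7%, 21.3% and 21.9% in replicates 2, 3 and 4. They took 9.23 to 10.2% in the 4 etoposide libraries and 7.87 to 15.2% in the DMSO libraries of the other genotypes. Replicate 1 thus lay inside the range of the other genotypes and replicates 2 to 4 above it. The median standard deviation (SD) between libraries over genes was 0.50 (log2) in HOM with DMSO, 0.15 in HOM with etoposide and 0.12 to 0.23 in the other 6 groups. The difference between the DMSO libraries followed base composition. Genes were put into 4 classes of equal size by the GC content of their transcripts. Replicates 2 to 4 differed from replicate 1 by a median of -1.24 (log2) in the class with the lowest GC content and by 0.75 in the highest. The results were repeated against replicate 1 alone and with each library's GC trend removed, to see how far they depend on this composition. The removal also takes out any part of the etoposide response that runs with GC content. From the lowest to the highest class the median response ran from 0.26 to -0.13 in WT and from 0.33 to -0.22 in KO. The osteosarcoma and mesenchymal markers (8 genes such as COL1A1, SPARC and VIM) summed to 129880 to 200710 normalized counts with DMSO and 69673 to 83885 with etoposide. COL1A2 was near 0, at 1.75 to 11.9 with DMSO. The 8 epithelial markers summed to 898 to 1663 with DMSO and 940 to 1205 with etoposide, and CLDN3 was at 0 with DMSO. Most of that sum was CLDN4, at 689 to 1187 with DMSO and 771 to 1081 with etoposide. Other members moved both ways. KRT14 was at 149 to 425 with DMSO and 33.2 to 38.1 with etoposide. CDH1 was at 1.49 to 8.76 and 22.1 to 34.8, and GRHL2 at 0 to 1.05 and 16.9 to 22.7. The 8 blood markers summed to 5.26 to 14.9 with DMSO and 28.1 to 45.1 with etoposide, and HBB was at 0 with DMSO. The part of these marker levels in the results was not tested.

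**Figure D1:**
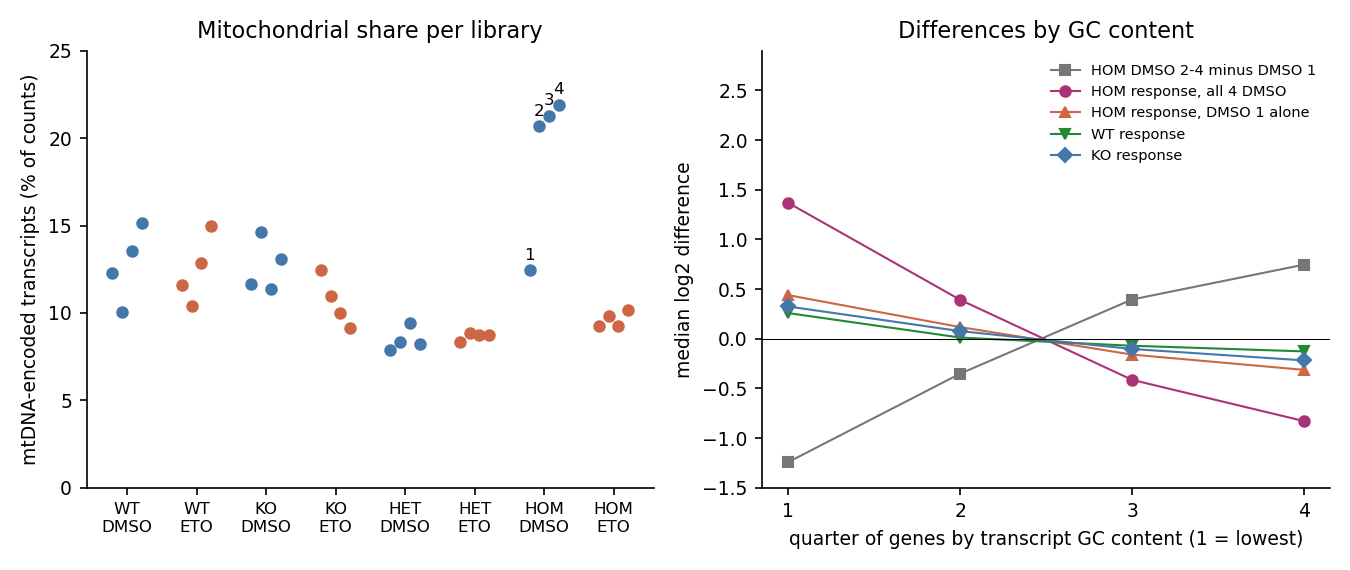
Left, mtDNA-encoded transcripts as a percentage of counts in each of the 32 libraries, blue for DMSO and orange for etoposide, with the HOM DMSO replicates numbered; replicates 2 to 4 lie above 20% and replicate 1 at 12.5%. Right, the median log2 difference in 4 equal classes of genes by transcript GC content; the HOM response against all 4 DMSO libraries runs from 1.37 in the lowest class to -0.83 in the highest, and against replicate 1 alone from 0.44 to -0.31.

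Etoposide changed the levels of a large share of genes in HOM cells. A gene is said to have risen or fallen where limma gave a Benjamini-Hochberg adjusted p under 0.05 and the fold change was at least 1.5. Changes are log2 differences of normalized count plus 1, etoposide minus DMSO. Against all 4 DMSO libraries 5007 genes rose, 32.4% of those tested, and 4551 fell, 29.5%. Against replicate 1 alone 3194 rose (20.7%) and 2878 fell (18.6%). That second fit takes the lone library to vary as libraries within the other groups do. In both fits 2798 genes rose (18.1%) and 2492 fell (16.1%), and 0 were called in opposite directions. Most of these genes had no overlap between the etoposide and DMSO libraries, which such calls favour. The share over all genes tested was not counted. The 2 fits share replicate 1 and the etoposide libraries, so they are not independent of each other. With the GC trend removed as well, 1818 genes rose in all 4 fits (11.8%) and 1616 fell (10.5%). With libraries scaled by total counts instead of the authors' size factors, the median change of all genes moved from 0.09 to 1.08, and 9153 genes rose against 961 that fell. With replicate 1 alone that median moved from 0.02 to 0.48, with 6058 rising and 1023 falling, so changes are relative to a median that the scaling sets.

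**Figure D2:**
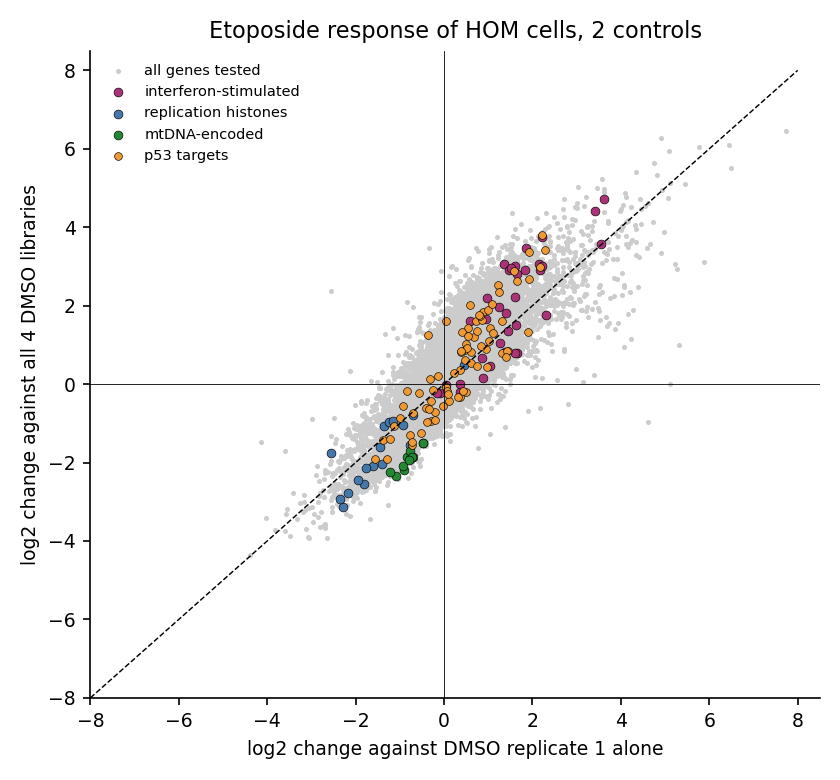
Each point is a gene, with its log2 change against DMSO replicate 1 alone on the horizontal axis and against all 4 DMSO libraries on the vertical axis; the dashed line marks equal values. Interferon-stimulated genes lie mostly to the upper right, replication histones to the lower left, and the mtDNA-encoded genes fall further against all 4 libraries than against replicate 1. The axes share replicate 1 and the etoposide libraries.

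The largest rises were of genes nearly silent in control HOM cells, several of them secreted factors. Ranges below run from the lowest to the highest of 4 libraries. CXCL8 (chr4:73740506-73743716 on GRCh38, GENCODE 29), the neutrophil-attracting chemokine interleukin-8, stood at 11.5, 4.48, 7.01 and 0 normalized counts in DMSO replicates 1 to 4 and at 441, 448, 362 and 278 with etoposide. The groups did not overlap, and the change was 6.28 ± 0.68 (SE) on the log2 scale against all 4 DMSO libraries (adjusted p = 0.00021) and 4.91 ± 0.95 against replicate 1 alone (adjusted p = 0.00013). NR4A3 (chr9:99821855-99866891), an orphan nuclear receptor induced early by stress signals, stood at 12.6, 5.97, 14.02 and 23.4 with DMSO and at 327, 308, 347 and 349 with etoposide. Its change was nearly the same with either control, 4.61 against all 4 and 4.62 against replicate 1. CHRNA9 (chr4:40335329-40355217), a nicotinic acetylcholine receptor subunit, went from 5.97–19.9 to 326–489, a change of 5.40 against all 4 and 4.35 against replicate 1. The remaining rises among the 12 largest started from a handful of reads. DSEL (chr18:67506582-67516980), related to the dermatan sulfate epimerases, was at 0 in DMSO replicates 1, 2 and 3, at 34.0 in replicate 4 and at 174, 313, 279.9 and 134 with etoposide. Its etoposide mean was at least 71.6-fold higher than replicate 1, taking 3 counts as the floor for a library at 0. TCIM, a regulator of transcription and immune signalling, was at least 27.7-fold higher on the same floor, with 0–1.75 normalized counts with DMSO and 72.3–95.0 with etoposide. KRT34, a hair keratin, was at least 28.7-fold higher, with 80.3–112 with etoposide and 0–14.9 with DMSO. NPPC, the C-type natriuretic peptide, stood at 101–122 with etoposide and 0–2.99 with DMSO. ESM1, the secreted proteoglycan endocan, stood at 55.3–103 and 0–2.10. INSL4, a peptide of the relaxin family, stood at 69.7–93.4 and 0–5.97. For these 3 secreted products, as for PIWIL2, LRRC4 and C4orf54, DMSO replicate 1 held only 1 to 3 counts, so levels are given and no fold. PIWIL2, of the piRNA pathway, was at 128–159 with etoposide and at most 3.14 with DMSO. LRRC4, a synaptic adhesion protein, was at 92.0–116 and 1.49–8.76, and C4orf54 at 43.0–85.9 and 0–4.25. All 12 rose against all 4 and by at least 1.5-fold against replicate 1 alone, both conditions of their choice. All 12 also rose with the GC trend removed.

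The largest falls were of genes well expressed in control cells, most of them very long. CXCL14 (chr5:135570679-135579279), a chemokine, stood at 16649, 15869, 17829 and 14518 normalized counts with DMSO and at 765, 794, 765 and 838 with etoposide. The groups were far apart, and the change was -4.35 ± 0.12 (SE) on the log2 scale against all 4 DMSO libraries (adjusted p = 5.5e-07) and -4.40 ± 0.11 against replicate 1 alone (adjusted p = 9.8e-21). OSBPL10 (chr3:31657890-32077580), an oxysterol-binding family member, fell from 2865–4788 to 385–424. TENM2 (chr5:167284799-168264157), a teneurin adhesion protein, fell from 2952–4302 to 232–313. PRKCA, protein kinase C alpha, fell from 2151–2602 to 229–281. ROR1, a receptor for Wnt5a, fell from 232–549 to 26.8–38.0. BABAM2, a subunit of a BRCA1 complex at DNA breaks, fell from 3754–10727 to 402–500.0. In each of these genes the lowest DMSO library was above the highest etoposide library, a condition of their choice. SLC14A1, a urea transporter, changed by -3.71 against all 4 and -3.82 against replicate 1, PRR16 by -3.19 against all 4 and -3.56 against replicate 1, KIRREL3 by -3.71 against all 4 and -3.12 against replicate 1 and KIF26B by -3.92 against all 4 and -3.06 against replicate 1. AL162417.1 and AL138752.2 complete the 12. Their adjusted p against replicate 1 alone was 0.18 and 0.13, so that call was lost.

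Of these 12 falling genes, 9 span at least 100 kb from start to end in GENCODE 29, and of the 12 largest rises 0 do. Among the 15312 tested genes with a span, 2439 span 100 to 300 kb and 655 span 300 kb or more. TENM2 spans 979 kb, KIRREL3 580 kb, PRKCA 508 kb and OSBPL10 420 kb. In the longest class the median change was -0.37 against all 4 DMSO libraries and -0.66 against replicate 1, and with the GC trend removed -0.82 and -0.81. Among these 655 genes 231 fell in all 4 fits (35.3%) and 53 rose (8.09%), beside 10.5% and 11.8% of all genes. The class of 100 to 300 kb had medians of 0.32 against all 4 and -0.13 against replicate 1, and -0.21 and -0.31 with the GC trend removed, with 16.4% falling in all 4 fits and 9.72% rising. Among the 3157 genes under 10 kb, 10.7% fell in all 4 fits and 11.1% rose. The longest class had a median of -0.28 in WT cells and -0.71 in KO cells, and the class of 100 to 300 kb -0.04 and -0.20. The span classes were chosen after the named genes had been seen.

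**Figure D3:**
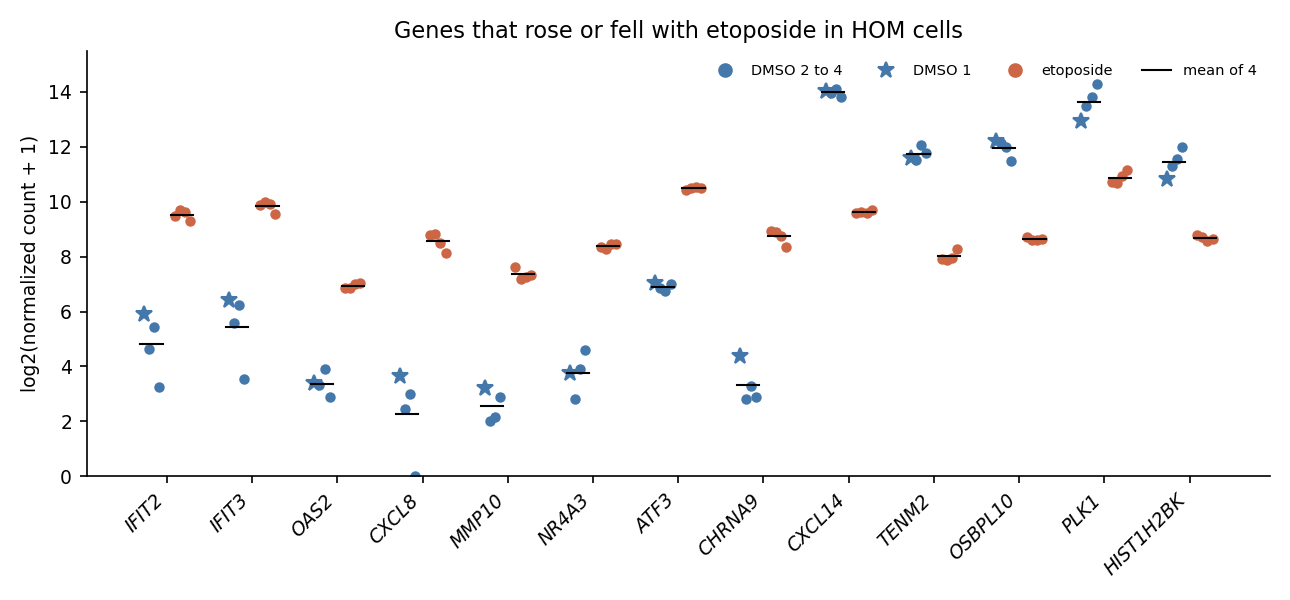
Log2(normalized count + 1) in each HOM library for 13 genes of the text, blue for DMSO with replicate 1 as a star and orange for etoposide; black lines are means of 4 libraries. In all 13 genes the 4 etoposide points lie wholly above or wholly below the 4 DMSO points, which was a condition of their choice.

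The p53 targets responded in part. Of 80 direct targets tested, 27 rose and 10 fell in both fits, beside 18.1% and 16.1% of all genes. Their median change was 0.74 against all 4 DMSO libraries and 0.47 against replicate 1 (all genes 0.09 and 0.02). With the GC trend removed as well, 20 rose and 4 fell in all 4 fits. With total-count scaling 57 rose and 2 fell.

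Among arrest genes 6 of 8 rose in both fits and 0 fell. CDKN1A (chr6:36676460-36687339), the cyclin-dependent kinase inhibitor p21, stood at 2019, 3023, 2946 and 4322 normalized counts with DMSO and at 7369, 7159.6, 7469 and 8105 with etoposide. The groups did not overlap, and the change was 1.34 ± 0.21 (SE) on the log2 scale against all 4 DMSO libraries (adjusted p = 0.0011) and 1.90 ± 0.14 against replicate 1 alone (adjusted p = 4.4e-11). WT cells reached far higher levels, 4651 ± 707 with DMSO and 34111 ± 2041 with etoposide (mean ± SD, n = 4), while KO cells had 3064 ± 267 with DMSO and 8875 ± 655 with etoposide. The HOM response of CDKN1A minus that of WT was -1.55 with all 4 HOM DMSO libraries (adjusted p = 4.3e-07) and -0.99 with replicate 1 alone (adjusted p = 8.5e-05). Its difference from KO was -0.20 (adjusted p = 0.41) and 0.36 (adjusted p = 0.38). ZMAT3, an RNA-binding protein and tumour suppressor, rose from 204–336 to 673–702 (1.42 against all 4 and 1.03 against replicate 1). BTG2, an antiproliferative co-regulator, rose from 586–657 to 1078–1171, and SESN1, a stress sensor upstream of mTORC1, from 21.2–90.2 to 179–236.

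Of the 4 feedback genes tested only MDM2 rose in both fits. MDM2 (chr12:68808176-68850686), the ubiquitin ligase that degrades p53, stood at 257, 83.6, 124 and 72.2 with DMSO and at 643, 617, 603 and 560.4 with etoposide. Replicate 1 was the highest of the DMSO libraries, so the change was 2.35 ± 0.36 against all 4 and 1.23 ± 0.24 against replicate 1. MDM2 stood in WT cells at 297 ± 91.4 with DMSO and 1772 ± 149.8 with etoposide, and in KO cells at 270.1 ± 29.1 with DMSO and 479 ± 61.9 with etoposide.

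The apoptosis targets split. Of 14 tested, 6 rose and 1 fell in both fits. PMAIP1, the BH3-only protein NOXA, rose from 70.1–317 to 1234–1755, by 3.42 against all 4 and 2.29 against replicate 1. FAS, a death receptor, rose from 14.9–87.0 to 205–292, by 2.89 against all 4 and 1.57 against replicate 1. AEN, an apoptosis-enhancing nuclease, rose from 831–1128 to 1988–2108. BBC3, the BH3-only protein PUMA, was the one that fell, from 475, 463, 478 and 552 to 292, 276, 271 and 332, with changes of -0.75 against all 4 and -0.70 against replicate 1. That fall turned to 0.26 with total-count scaling and to 0.13 against all 4 with the GC trend removed, so the direction of BBC3 depends on the scaling. BAX, the pore-forming effector of the mitochondrial pathway, stood at 1767, 2384, 2537 and 3629 with DMSO and 1499, 1466, 1557 and 1626 with etoposide. It fell against all 4 (-0.70, adjusted p = 0.014) and was not called against replicate 1 (-0.20, adjusted p = 0.2), and its sign turned with total-count scaling (0.31) and with the GC trend removed (0.08). In WT cells both genes were higher with etoposide, BBC3 at 526 ± 33.2 with DMSO and 1489.8 ± 31.8 with etoposide and BAX at 1908 ± 271 with DMSO and 3369 ± 162 with etoposide. The response of BBC3 in HOM minus that in WT was -2.25 (adjusted p = 2e-12) and with replicate 1 alone -2.20 (adjusted p = 9.7e-10).

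Repair, metabolic and other targets held further rises. RRM2B, the p53-inducible ribonucleotide reductase subunit, rose from 40.4–308 to 1150.5–1668, by 3.81 against all 4 and 2.22 against replicate 1. GADD45A, a stress-response growth arrest gene, rose from 55.2–198 to 813–967, by 2.99 against all 4 and 2.18 against replicate 1. TIGAR, a fructose bisphosphatase, rose by 1.89 against all 4 and 1.0 against replicate 1 and DRAM1, an autophagy regulator, by 2.04 against all 4 and 1.08 against replicate 1. KITLG, the ligand of the receptor KIT, rose from 4.25–62.9 to 231–252, and TRIM22, an antiviral ubiquitin ligase, from 47.3–72.3 to 161–195. GDF15, a secreted stress cytokine, stood at 58.7, 73.2, 85.9 and 134 with DMSO and 147, 131, 148 and 161 with etoposide, and the groups overlapped. Its change was 0.80 (adjusted p = 0.022) and 1.30 (adjusted p = 0.00028), and the call against all 4 was lost without DMSO replicate 2 (0.73) or without etoposide replicate 1, 3 or 4 (0.79, 0.79 and 0.75), and with quantile normalization (0.14). CYFIP2, a regulator of actin assembly, fell from 772–1663 to 282–364. LIF, a cytokine of the interleukin-6 family, fell from 1475–1892 to 599.8–675, a call lost with total-count scaling (-0.38).

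**Figure D4:**
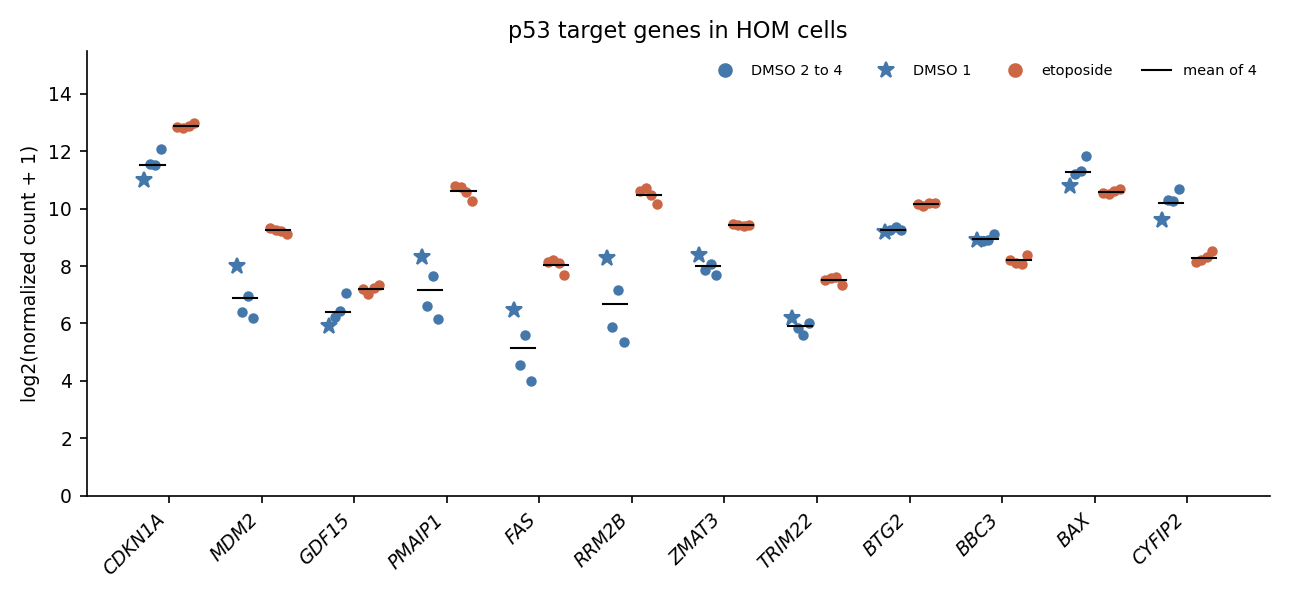
Log2(normalized count + 1) of 12 p53 targets in each HOM library, blue for DMSO with replicate 1 as a star and orange for etoposide; black lines are means of 4 libraries. MDM2, PMAIP1, FAS and RRM2B are highest in DMSO replicate 1 among the DMSO libraries, and BBC3, BAX and CYFIP2 are lower with etoposide.

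Of the 80 targets, 64 rose in WT cells, where 20.1% of 16824 genes rose and 14.9% fell. Of these 64, 26 rose in HOM in both fits, 4 fell (BBC3, CYFIP2, KLHDC7A and LIF) and 34 did neither. In KO cells, which have no p53, 22 of the 64 rose, beside 18.1% of all genes that rose there and 14.5% that fell. Of the 26, 6 were not called as rising in KO: ZMAT3, RPS27L, TRIM22, EDA2R, KITLG and CCDC90B. This compares calls and is no test of a difference. Under the 1.5-fold needed for a call, the changes in KO were 0.55 for EDA2R, 0.56 for KITLG, 0.48 for RPS27L and 0.53 for CCDC90B. In the test of the difference from KO with replicate 1 alone, ZMAT3, TRIM22 and KITLG were called and the other 3 were not. The rise of RPS27L in HOM was lost with the GC trend removed (0.25), and that of CCDC90B against replicate 1 likewise (0.15).

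Most interferon-stimulated genes rose. Of 35 tested, 28 rose and 0 fell in both fits, 26 of them with the GC trend removed as well, and the median change was 1.82 against all 4 and 1.47 against replicate 1. Beside this, 18.1% of all genes rose and 16.1% fell in both fits. With total-count scaling 34 of the 35 rose and 0 fell, and with quantile normalization 25 rose and 3 fell. These genes code for antiviral proteins and are switched on by STAT and IRF factors through the interferon-stimulated response element (ISRE). IFIT2 (chr10:89283694-89309276), which binds viral RNA, stood at 58.7, 23.9, 42.1 and 8.49 with DMSO and at 716, 830.2, 780.0 and 628 with etoposide, a change of 4.72 ± 0.50 (SE) on the log2 scale against all 4 DMSO libraries (adjusted p = 0.00018) and 3.62 ± 0.39 against replicate 1 alone (adjusted p = 2.2e-08). IFIT3, its partner protein, stood at 84.9, 46.3, 73.6 and 10.6 and at 949.7, 1027, 978 and 751. OAS2, which makes the activator of RNase L, stood at 9.43, 8.96, 14.02 and 6.37 and 116, 114, 128 and 132, with the same change for either control (3.57 against all 4 and 3.56 against replicate 1). SAMD9, an antiviral restriction factor, stood at 96.4, 10.5, 73.6 and 14.9 and 475, 508, 507 and 342. All 4 genes had every etoposide library above every DMSO library, which was a condition for naming list members.

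The promoters of IFIT3 (chr10:89327747-89327996, plus strand) and SAMD9 (chr7:93117980-93118229, minus strand) show the element that many of these genes share. They are the 250 bases before the RefSeq start on GRCh38.p14, read 5′ to 3′ on the gene's strand, and capitals mark matches on either strand to the ISRE core, here TTTC, any 2 bases and TTTC.
IFIT3: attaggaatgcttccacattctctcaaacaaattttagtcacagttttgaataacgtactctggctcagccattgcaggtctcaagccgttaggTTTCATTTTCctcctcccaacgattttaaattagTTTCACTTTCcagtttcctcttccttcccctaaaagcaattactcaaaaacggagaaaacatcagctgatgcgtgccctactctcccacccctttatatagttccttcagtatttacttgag
SAMD9: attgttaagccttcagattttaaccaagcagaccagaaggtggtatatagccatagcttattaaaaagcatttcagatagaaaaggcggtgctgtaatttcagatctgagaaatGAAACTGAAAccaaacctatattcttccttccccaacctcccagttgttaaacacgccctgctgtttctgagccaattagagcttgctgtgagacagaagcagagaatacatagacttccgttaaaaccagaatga
IFIT3 had matches beginning 156 and 122 bases before the start and SAMD9 one at 136. Of 28 interferon-stimulated genes tested with a promoter in the table, 15 held the core (53.6%), beside 3.07% of 27305 promoters and 2.33% of the 11324 promoters of genes tested. A match is a description of sequence and not of binding.

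NF-kB targets and cytokines rose as well. NF-kB is a transcription factor of inflammation that DNA breaks can activate. Of 23 tested, 16 rose and 2 fell in both fits, with a median of 2.02 against all 4 and 2.27 against replicate 1, and 15 rose and 2 fell in all 4 fits. The shares of all genes that rose and fell in both fits were 18.1% and 16.1%. CXCL8 led the list. MMP10, a matrix metalloproteinase, stood at 8.39, 2.99, 3.50 and 6.37 with DMSO and at 197, 143, 153 and 161 with etoposide. PTGS2, the prostaglandin synthase COX-2, stood at 36.7, 11.9, 15.8 and 6.37 and 518, 510.5, 455 and 381. In both genes the lowest etoposide library was far above the highest DMSO library, and no overlap was a condition for naming them. BIRC3, an inhibitor of apoptosis, stood at 19.9, 2.99, 7.01 and 0 and 119, 107, 95.9 and 91.8, a rise of 4.35 against all 4 and 2.31 against replicate 1. The 2 that fell were LIF and CSF2, the granulocyte-macrophage growth factor. CSF2 stood at 48.2, 59.7, 33.3 and 48.8 with DMSO and at 21.4, 27.6, 26.1 and 21.3 with etoposide. With total-count scaling both calls against all 4 were lost and the change of CSF2 was 0.05, or -0.54 and not called against replicate 1. CSF2 was higher with etoposide in WT cells (30.6 ± 3.42 with DMSO and 112 ± 8.35 with etoposide) and in KO cells (18.9 ± 1.58 with DMSO and 82.8 ± 9.84 with etoposide).

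The CXCL8 (chr4:73740319-73740568, plus strand) and MMP10 (chr11:102780629-102780878, minus strand) promoters from the same table are shown because these genes had large rises. Capitals mark matches to the AP-1 motif TGANTCA in both and to the NF-kB motif GGAATTTCC in CXCL8.
CXCL8: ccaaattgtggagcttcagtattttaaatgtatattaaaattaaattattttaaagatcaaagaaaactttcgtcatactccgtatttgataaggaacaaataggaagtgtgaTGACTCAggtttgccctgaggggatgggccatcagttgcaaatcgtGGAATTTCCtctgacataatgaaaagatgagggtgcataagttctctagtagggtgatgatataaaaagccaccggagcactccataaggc
MMP10: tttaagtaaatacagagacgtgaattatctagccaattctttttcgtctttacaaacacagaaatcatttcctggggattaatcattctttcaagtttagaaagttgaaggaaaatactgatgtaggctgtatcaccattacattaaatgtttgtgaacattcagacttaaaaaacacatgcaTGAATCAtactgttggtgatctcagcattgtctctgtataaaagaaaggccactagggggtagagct
The NF-kB match in CXCL8 began 91 bases before the start and its AP-1 match 137 bases before it, and the AP-1 match in MMP10 began at 67. GGAATTTCC was found in 5 of 19 promoters of the list (26.3%), beside 0.428% of all promoters. A second NF-kB form (GGG, any 2 bases and TTTCC) was found in 7 of 19 (36.8%), beside 1.73% of all. The AP-1 motif was found in 4 of 19 (21.1%), beside 6.60% of all. Both strands were searched.

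Of 25 immediate-early and AP-1 genes, 13 rose and 2 fell in both fits (medians 0.73 and 0.78). Of all genes 18.1% rose and 16.1% fell in both fits. ATF3 (chr1:212565334-212620777), a stress-induced repressor of the ATF family, stood at 132, 114, 105 and 127 with DMSO and at 1392, 1454, 1466 and 1439.6 with etoposide, a change of 3.58 against all 4 and 3.43 against replicate 1. FOSB, a component of AP-1, rose from 31.4–78.6 to 539.7–694. EGR4, an early growth response factor, was at 0 in DMSO replicate 1 and at 13.4, 12.3 and 10.6 in replicates 2, 3 and 4, and rose to 52.2–69.7. FOSL2, another AP-1 component, fell from 8944–14021 to 2607–3076. The cyclic AMP response element TGACGTCA was found in 3 of 19 promoters of this list (15.8%), beside 1.77% of all.

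In the BCL2 family and the mitochondrial apoptosis machinery, 9 of 27 genes rose and 5 fell in both fits. The shares over all genes were 18.1% and 16.1%, so the falls were near the background. BIK, a BH3-only protein, stood at 4.19, 11.9, 10.5 and 21.2 with DMSO and at 63.3, 69.8, 75.9 and 86.7 with etoposide. HRK, another BH3-only protein, rose from 46.7–67.2 to 132–167. The anti-apoptotic BCL2L1 (BCL-XL) stood at 4767, 6950.0, 7727 and 12007 and at 1895, 1844, 1907 and 2196, a change of -1.93 against all 4 and -1.28 against replicate 1. BMF, a BH3-only protein, fell from 1130.1–1650.1 to 334–422, and BAD, of the same class, from 2361–6647 to 1038–1221. Pro-apoptotic members were thus found on both sides. In bulk RNA of such cultures fewer cells of a state and less RNA per cell cannot be told apart.

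Genes of G2 and mitosis did not move as a group. Of 46 tested, 5 rose and 8 fell in both fits, and in all 4 fits 0 rose and 8 fell. Over all genes 18.1% rose and 16.1% fell in both fits, and 11.8% rose and 10.5% fell in all 4. The falls of the list in both fits were near that share. The median of the list was 0.53 against all 4 DMSO libraries and -0.18 against replicate 1, so the direction of the list turned with the control. Against replicate 1 it also turned with the scaling, with a median of 0.21 under quantile normalization. With the GC trend removed the median was below 0 for either control, at -0.18 against all 4 and -0.36 against replicate 1. PLK1 (chr16:23677656-23690367), a kinase of mitotic entry, stood at 7764, 11349, 14465 and 19801 with DMSO and at 1669.9, 1648, 1955 and 2258 with etoposide, a change of -2.75 ± 0.27 (SE) on the log2 scale against all 4 DMSO libraries (adjusted p = 0.00012) and -2.06 ± 0.21 against replicate 1 alone (adjusted p = 8.9e-09). CDC20, an activator of the anaphase-promoting complex, stood at 13541, 18956, 23025 and 32920 and 3946, 3837, 4585 and 4682. CDC25B, a phosphatase that activates CDK1, fell from 10040–29199 to 3348–4587. TPX2, a spindle assembly factor, fell from 5179.7–7226 to 2869.7–3139.9, a call lost with total-count scaling (-0.01) and quantile normalization (-0.09). HMMR, also a spindle protein, stood at 173, 31.4, 75.3 and 14.9 with DMSO and 543, 547, 553 and 376 with etoposide. It rose by 3.29 against all 4 and 1.52 against replicate 1, and the call against replicate 1 was lost with the GC trend removed (0.95).

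The promoters of PLK1 (chr16:23678639-23678888, plus strand) and CDC20 (chr1:43358731-43358980, plus strand) are shown for the cell cycle genes homology region (CHR), through which the DREAM complex represses such genes in arrested cells. Capitals mark TTTGAA on either strand, in the 250 bases before the RefSeq start on GRCh38.p14.
PLK1: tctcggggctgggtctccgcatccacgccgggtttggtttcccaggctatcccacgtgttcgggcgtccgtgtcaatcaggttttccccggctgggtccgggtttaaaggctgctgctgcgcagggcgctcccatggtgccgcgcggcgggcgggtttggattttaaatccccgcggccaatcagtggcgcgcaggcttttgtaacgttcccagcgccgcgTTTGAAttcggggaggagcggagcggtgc
CDC20: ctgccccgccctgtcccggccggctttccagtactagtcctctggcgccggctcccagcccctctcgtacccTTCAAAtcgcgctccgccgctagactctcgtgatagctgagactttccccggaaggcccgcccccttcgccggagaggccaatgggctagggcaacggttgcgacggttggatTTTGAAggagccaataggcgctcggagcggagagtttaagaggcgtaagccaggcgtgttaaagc
The match in PLK1 began 29 bases before the start and those in CDC20 began at 178 and 65. TTTGAA was found in 19 of 38 promoters of the list (50%), beside 13.6% of all promoters and 8.64% of those of genes tested.

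Replication and repair genes moved both ways. Of 48 S-phase and replication genes 10 rose and 5 fell in both fits (medians 0.16 and 0.29), and 7 rose and 2 fell in all 4 fits. Over all genes 18.1% rose in both fits and 11.8% in all 4, so the rising shares are near the background. CCNE2, cyclin E2, stood at 98.5, 26.9, 21.03 and 10.6 with DMSO and at 604, 659, 593 and 405 with etoposide. CLSPN, an adaptor of the checkpoint kinase CHK1, rose from 178–427 to 1143–1372, and CDC6, an origin licensing factor, from 387–993 to 1847–2142. MCM5, a subunit of the replicative helicase, fell from 7897–20175 to 3208–4020.4. Of 31 homologous recombination and Fanconi genes 14 rose and 2 fell in both fits, with medians of 1.51 and 0.62. With the GC trend removed 4 rose and 2 fell in all 4 fits, again near the background, and the medians were 0.42 and 0.23. RAD51AP1, a factor of homologous recombination, was among those 4, with 240.1, 65.7, 126 and 42.5 and 919.6, 949.5, 852 and 595. FANCC, of the Fanconi core complex, fell from 857–975 to 306–380.1, a call lost with total-count scaling (-0.41). Replication histones fell: of 17 tested 13 fell and 0 rose, also in all 4 fits, with medians of -1.76 and -1.46. HIST1H2BK stood at 1832, 2548, 3045 and 4124 and 439, 414, 376 and 395. Poly-A selection captures most replication histone transcripts poorly, so these levels are of their polyadenylated forms.

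The size of the changes in transcripts of the respiratory chain and the ribosome rested on the control libraries and the scaling. For the nuclear-encoded genes the direction did so too. All 13 mtDNA-encoded genes fell against all 4 DMSO libraries, with a median of -1.87, and 10 fell against replicate 1, with a median of -0.78. With total-count scaling of the 8 libraries 11 fell (median -0.86), and with the GC trend removed all 13 fell (median -2.65). Against replicate 1 the medians were -0.32 with total-count scaling and -1.0 with the GC trend removed. With quantile normalization of the 8 libraries 1 fell. That method gives equal ranks equal values, so it cannot show a change of transcripts that keep their rank. MT-CO2, a cytochrome c oxidase subunit, changed by -2.19 against all 4 and -0.90 against replicate 1, and by -0.14 with quantile normalization. Of 35 cytosolic ribosomal protein genes 20 fell in both fits and 14 in all 4, with medians of -1.23 and -0.63, but with quantile normalization 9 rose and 2 fell, and the median was 0.08. Of 41 nuclear genes of oxidative phosphorylation 10 fell in both fits and 5 in all 4 (medians -0.66 and -0.23), the latter beside 10.5% of all genes, while with total-count scaling 14 rose and 2 fell (median 0.35). The mitochondrial share of each library moved with these results, and its part in them was not tested.

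**Figure D5:**
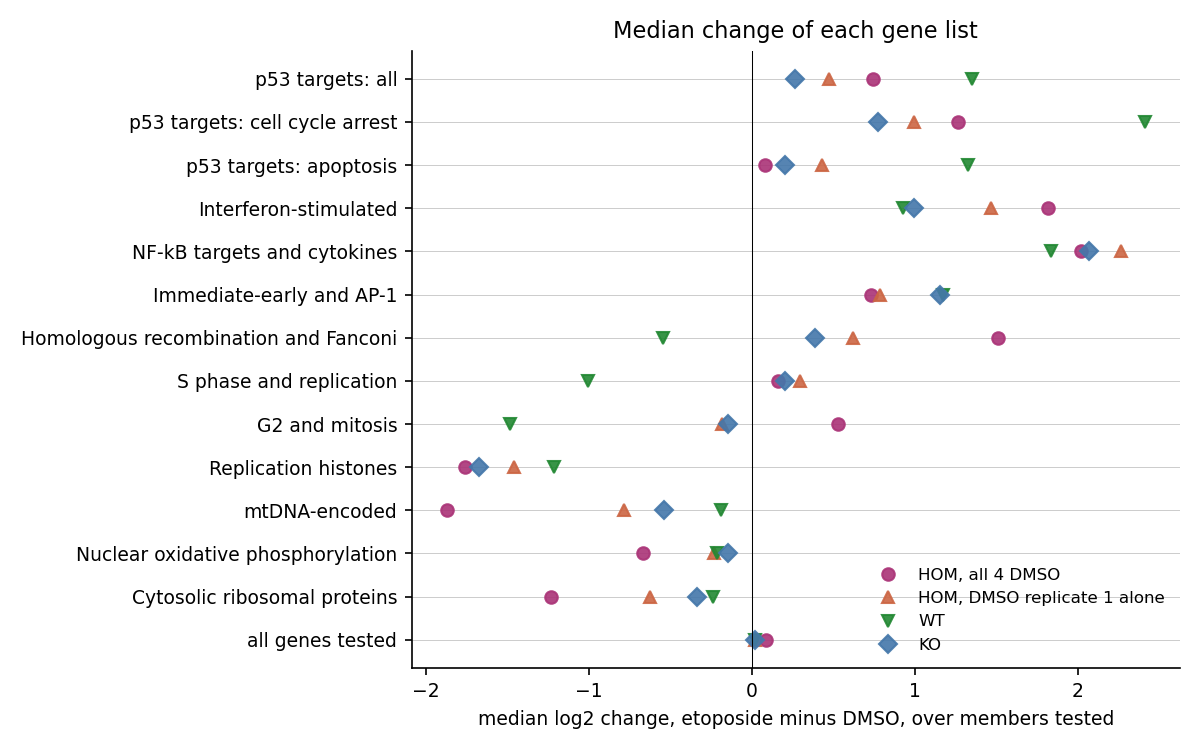
Median log2 change, etoposide minus DMSO, over the tested members of 13 lists and over all genes, for HOM against all 4 DMSO libraries, HOM against replicate 1 alone, WT and KO; members tested differ slightly between HOM and the other genotypes. Over all p53 targets the HOM median against replicate 1 is 0.47 over 80 genes, and KO has 0.27 and WT 1.35 over 84 genes. Over the same 84 genes the median of HOM minus KO was 0.06 with replicate 1 alone, and 0.02 with the GC trend removed as well. That of HOM minus WT was -0.94 with replicate 1 alone. The G2 and mitosis median is -0.18 in HOM against replicate 1, -0.15 in KO and -1.48 in WT.

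Whether the response of HOM differed from that of cells without p53 depended on the control libraries. With all 4 HOM DMSO libraries, the response was higher than in KO for 4099 of 16824 genes (24.4%) and lower for 3245 (19.3%). With replicate 1 alone it was higher for 180 (1.07%) and lower for 131 (0.779%). Of 84 p53 targets tested, 30 were higher and 15 lower with all 4, and 5 higher (ZMAT3, TP53INP1, TRIM22, SUSD6 and KITLG) and 3 lower (GADD45A, BCL6 and LIF) with replicate 1 alone. These genes, and the small sets named below, are given because the counts are small and were picked after their values were seen. ZMAT3 changed by 1.03 in HOM against replicate 1 and by 0.24 in KO, a difference of 0.80 ± 0.15 (SE, adjusted p = 0.003). TRIM22 changed by 1.32 and 0.36, a difference of 0.96 ± 0.24 (adjusted p = 0.034). TP53INP1, a p53-induced regulator of apoptosis, changed by 0.48 in HOM against replicate 1 and by -0.65 in KO, a difference of 1.13 ± 0.22. With the GC trend removed its HOM change was -0.64 against all 4 and -0.006 against replicate 1. SUSD6 fell less in HOM than in KO, with changes of -0.26 and -0.94.

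Interferon-stimulated genes rose in KO and WT cells too. Of 36 tested, 25 rose and 0 fell in KO (median 1.0) and 22 rose and 1 fell in WT (median 0.93). In the test of the difference from KO with replicate 1 alone 4 of 36 responded more in HOM (IFIT2, IFIT3, ISG15 and OASL) and 0 less, and with all 4 DMSO libraries 21 more and 1 less. IFIT3 changed by 3.42 in HOM and 1.59 in KO, a difference of 1.83 ± 0.34. IFIT2, IFIT3, ISG15 and OASL changed by 3.62, 3.42, 1.64 and 2.30 in HOM against replicate 1. In WT they changed by 4.24, 3.94, 2.705 and 2.275. Over the 36 genes the median of HOM minus WT with replicate 1 alone was 0.30. ISG15, a ubiquitin-like modifier, changed by 1.64 and 0.41, a difference of 1.23 ± 0.18 (adjusted p = 0.00016), while with all 4 HOM DMSO libraries its difference was 0.40 (adjusted p = 0.21). Of 27 immediate-early genes 2 responded more (ATF3 and NR4A3) and 6 less, and of 23 NF-kB targets 0 more and 3 less. CSF2 had the largest of these, -3.05 ± 0.28 (adjusted p = 1.1e-07). The response of BMF was higher in HOM than in KO, by 1.02 ± 0.20 (adjusted p = 0.0036), and that of BCL2L1 was lower, with a difference of -0.66 ± 0.16 (adjusted p = 0.03). For G2 and mitosis (46 genes), S phase (48) and homologous recombination (31), 0 were called by limma in either direction with replicate 1 alone. At an unadjusted p under 0.05 these lists held 1, 0 and 0 higher and 1, 3 and 1 lower, and with all 4 DMSO libraries 22, 10 and 16 were called higher and 7, 12 and 3 lower.

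With replicate 1 alone the differences from WT were more numerous than those from KO. With all 4 HOM DMSO libraries the HOM response was higher than the WT response for 4410 genes (26.2%) and lower for 4028 (23.9%). With replicate 1 alone it was higher for 1509 (8.97%) and lower for 1595 (9.48%). Of 84 p53 targets 57 were lower and 1 was higher with replicate 1 alone, and 61 were lower and 1 higher with the GC trend removed as well. The opposite held for proliferation genes. Of 46 G2 and mitosis genes 35 were higher and 0 lower with replicate 1 alone, of 48 S-phase genes 41 and 0, and of 31 homologous recombination genes 17 and 0. The WT medians of these 3 lists were -1.48, -1.0 and -0.54. Replicate 1 alone and the GC trend removed together gave 36, 43 and 19 higher and 0 lower. Of 17 replication histones 0 were higher and 3 lower. The HOM libraries are common to the comparisons with WT and with KO, so these are not independent of each other.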

How the data were processed

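Poly-A RNA of U2OS cells was sequenced from 32 plates, and the 8 HOM libraries carry the comparison. Per the submitters' processing notes the authors used kallisto, DESeq2 and GRCh38 (hg38), with versions not given in the sources used here. Whether counting used strand is also not given in the sources used here, so reads of a gene and an antisense partner may be mixed. The matrix deposited by the authors holds values after variance stabilization, close to log2 for high counts. It was inverted to normalized counts, with the deposited mean normalized signal per gene as the guide, and 100% of the values in each library came out as whole counts within 0.01 after multiplication by its size factor. Gene totals of 20.35 to 22.26 M counts per HOM library set the counting precision, which is coarsest for genes with few counts. Whether it was finer than the spread between plates was not tested for each gene. Of the sample columns, 0 were left unused.

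limma 3.58.1 (R 4.3.3, trend option, two-sided, Benjamini-Hochberg) was run on log2(normalized count + 1), which understates changes of low genes. Genes needed 10 normalized counts in 4 of the 8 libraries (15445 genes), or in 4 of 32 for differences between responses (16824 genes). The fit against DMSO replicate 1 alone used the other 24 libraries for the spread. Calls needed an adjusted p under 0.05 and 1.5-fold. GC content, spans and coordinates are from GENCODE 29 on GRCh38, promoters from RefSeq on GRCh38.p14.

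The members and the 25 gene lists were chosen with earlier results of these data known, and no list was tested as a set. Named genes were the 12 largest rises and 12 largest falls with non-overlapping groups and a mean of at least 50 in one group, ranked by the smaller of the changes against all 4 and replicate 1; CDKN1A, MDM2, BBC3, BAX and GDF15; up to 4 rising and 4 falling members per list; the 5 highest and 5 lowest response differences with the same sign for either control; and 3 genes each whose sign turns between DMSO replicates 2 to 4 and 1. A few others are named where a count was small, and some results are not reported here. Alternatives were other scalings, pseudocounts, filters, weights, the replicate block and leaving out each library. Removal of the GC trend (a lowess line on GC content subtracted in each library), the scalings with replicate 1 alone, GC classes, gene spans and promoter motifs were added after seeing the data. The limma fits were tested on simulated data. The deviations of same-numbered libraries correlated for replicates 1 and 4 (0.30 and 0.47) and not for 2 and 3 (-0.09 and -0.02), so the numbers were not taken to pair them.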

Additional observations from a re-analysis of the deposited data

Results flagged for a closer look

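In groups of 4 libraries, a value was singled out when its gap to the nearest of the others exceeded Dixon's critical value as a share of the group's range. Chance does this in about 1 in 20 groups, and it happened in 9 of 66 groups examined. The mtDNA share of HOM with DMSO gave 0.87, with replicate 1 the low library. DSEL, TCIM and KRT34 in HOM with DMSO each gave 1, since 3 of the 4 libraries were at 0. LRRC4 in HOM with DMSO gave 0.83. With etoposide, KRT34 gave 0.86, INSL4 0.92, PRKCA 0.84 and AL138752.2 0.87.

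Response differences between genotypes, by limma over 32 libraries, are given for 5 higher and 5 lower genes in each comparison. These were called with all 4 HOM DMSO libraries and ranked by the smaller of the differences with all 4 and with replicate 1 alone. The values printed are with all 4, where some unlisted genes differed more, such as IFIT2 against KO (2.82). Differences are log2, the HOM response minus the other, and those of genes near 0 in a group depend on the added count of 1. Against WT, DSEL was higher by 5.30, CCKAR, a cholecystokinin receptor, by 5.06, TCIM by 3.50, FGF21, a stress hormone, by 3.36 and RPRML by 3.18. Lowest in that ranking were TREM2 (-7.88), LCE1F (-7.44), LCE1C (-6.86), LGALS7B (-6.59) and RNASE7 (-5.98). TREM2, a receptor of myeloid cells, stood in WT at 1.41 ± 1.21 with DMSO and 1209.9 ± 137 with etoposide, and at no more than 1.62 in any HOM library with etoposide. LCE1F and LCE1C, proteins of the cornified envelope, stood in WT at 1.004 ± 1.44 with DMSO and 359.5 ± 24.4 with etoposide, and at 0.75 ± 0.97 with DMSO and 707 ± 68.3 with etoposide. LGALS7B has a near-identical copy, so its value is uncertain. All 10 differences from WT kept their sign and at least 1.5-fold with DMSO replicate 1 alone, which was a condition of their choice.

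Against KO, DSEL was higher by 5.13, TCEAL7 by 4.54, INSL4 by 3.52, ARMCX5-GPRASP2 by 2.95 and KRT34 by 2.66. Lowest in the same ranking were CSF2 (-3.00), AC138696.1 (-2.62), PRF1 (-2.42), IGFBP4 (-2.28) and MROH6 (-2.16). With DMSO replicate 1 alone the calls for KRT34, ARMCX5-GPRASP2, IGFBP4 and AC138696.1 were lost, with values of 3.65, 2.64, -2.30 and -2.04.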

How the results depend on the processing

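The counts of calls rest first on the DMSO libraries. Against all 4, HOM gave 5007 rising and 4551 falling genes. Replicate 1 alone gave 3194 and 2878, with quantile normalization 2728 and 2677, with total-count scaling 6058 and 1023, and with the GC trend removed 2806 and 2527. Total-count scaling of all 8 libraries gave 9153 and 961. Leaving out each library in turn gave 4247 to 5664 rising and 4155 to 5076 falling. The replicate block gave 5172 and 4584, and it changed no call of the 151 named genes examined; the numbers share no source in the labels. The HOM minus WT counts of 4410 higher and 4028 lower became 1509 and 1595 with replicate 1 alone, 8238 and 914 with total-count scaling, and 1716 and 1733 with replicate 1 alone and the GC trend removed. The GC trend removed with all 4 gave 2670 higher, and single libraries left out 3666 to 5270 higher and 3430 to 4686 lower. The HOM minus KO counts of 4099 and 3245 became 180 and 131 with replicate 1 alone, 7953 and 239 with total-count scaling, 1609 and 1785 with the GC trend removed, and 323 and 196 with the GC trend removed and replicate 1 alone. Quantile normalization gave 2564 higher and the 16 libraries of HOM and KO alone 2148 higher. Single libraries left out gave 2864 to 5099 higher and 2114 to 4224 lower, the lowest without HOM DMSO replicate 4. The cause was not tested.

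For most of the 151 named genes, at least 1.5-fold in the same direction against replicate 1 alone was a condition of their choice. Agreement with replicate 1 alone is thus no check of them. Of the 151, 120 kept call and direction with total-count scaling, 127 with quantile normalization and 130 with the GC trend removed. All 151 did so with a pseudocount of 5, no filter, all 32 libraries in one fit and voom weights, and on the deposited scale all but CSF2 (-0.51). Signs turned as follows: BBC3 to 0.26 with total-count scaling and 0.13 with the GC trend removed; BAX to 0.31 with total-count scaling, 0.26 with that and replicate 1 alone, 0.050 with quantile normalization and replicate 1, 0.081 with the GC trend removed, and 0.082 with that and replicate 1. TK1 turned to 0.061 with quantile normalization and replicate 1, CSF2 to 0.048 with total-count scaling, CALR to 0.27 with that and 0.51 with quantile normalization, and FUNDC1 and LOX to -0.16 and -0.20 with the GC trend removed. Depth limits the genes near 0 with DMSO, given as levels or bounds.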

Other observations

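Genes of cholesterol synthesis moved both ways in HOM cells. Of 23 tested, 6 rose and 8 fell in both fits, and 4 and 5 in all 4 fits. Over all genes 18.1% rose and 16.1% fell in both fits, the background for each count here. The enzymes IDI1, HMGCS1 and SC5D rose (against replicate 1 by 1.65, 1.10 and 1.29), while MVK and FDFT1 of the same pathway fell (-1.30 and -1.01, the latter call lost with total-count scaling at -0.56 against all 4). SREBF2, the transcription factor that drives the pathway, fell by 1.12. Of 28 genes of the ATF4 stress response 3 rose and 4 fell in both fits. MTHFD2, a mitochondrial folate enzyme, rose by 1.38 and DDIT4, an inhibitor of mTORC1, fell by 1.98, both against replicate 1. Of 21 genes of the unfolded protein response 4 rose and 2 fell in both fits, of 22 mitochondrial chaperones and proteases 4 and 3, and of 23 genes of mitochondrial dynamics 2 and 3. CPT1A, which admits fatty acids to mitochondria, rose by 1.52, and against all 4 the call was lost with quantile normalization (0.63). GRPEL2, a mitochondrial co-chaperone, rose by 1.59. Of 23 osteosarcoma and matrix genes 3 rose and 7 fell in both fits, and of 8 epithelial genes 2 and 1.

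Some genes changed sign with the DMSO libraries used. Among genes with a mean of at least 200 normalized counts, 24 were higher with etoposide than DMSO replicates 2 to 4 and lower than replicate 1, each by 1.5-fold, and 5 the other way. MBNL1, a splicing regulator, stood at 909.9, 206, 471 and 155 in DMSO replicates 1 to 4 and at 403–510.5 with etoposide. FLOT1, a membrane scaffold protein, stood at 52.4, 937, 995 and 1586 and at 202–659.8. TBC1D23 and CDC42BPA turned the same way as MBNL1, and DHRS11 and NDE1 the same way as FLOT1.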
